A study of Mus musculus with 9 samples.

Results

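Cell cycle genes were examined for changes in open chromatin after an shRNA against Smndc1 or Atrx in a mouse pancreatic alpha cell line. The set holds 36 genes: cyclins, cyclin-dependent kinases (Cdks) and their inhibitors, Rb1 and E2f1 to E2f3, replication factors, and genes of mitosis. Every consensus region that overlaps a gene body extended by 5 kb on both sides was taken, which gave 122 of the 80827 regions of the series. Of these, 49 are gene-end regions at 31 genes, meaning that they reach within 1000 bp outside or 500 bp inside of an annotated end, and 73 lie elsewhere (50 in the gene body and 23 in the flanks). Ccnd2, Ccnd3, Cdk6, Ccne2 and Ccna2 have no gene-end region.

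ATAC-seq, which maps open chromatin by transposase insertion, was done on alphaTC1 cells 5 days after transduction. There are 3 groups of 3 libraries, which the labels describe as individual biological replicates: cells transduced with Smndc1 shRNA, cells transduced with Atrx shRNA, and cells given the empty vector. Smndc1 is a splicing factor whose Tudor domain binds methylated arginine, and Atrx a chromatin remodeler. Both shRNA groups are compared with the same empty vector libraries. The line comes from a mouse tumour driven by SV40 T antigen under the preproglucagon promoter, so every group carries that oncogene, which binds Rb family proteins and p53.

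A cell enters division when D-type cyclins with Cdk4 or Cdk6, and then cyclin E with Cdk2, phosphorylate Rb and release E2F factors, which switch on genes of DNA replication. Inhibitors of the Cip/Kip family (Cdkn1b, which encodes p27) and of the Ink4 family (Cdkn2c, which encodes p18, and Cdkn2a) hold these kinases back. Cyclins A and B with Cdk1, together with Foxm1, Plk1 and the Aurora kinases, then drive mitosis. Islet endocrine cells divide rarely in the adult, and in mouse beta cells p27 and p18 are known to restrain division.

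The libraries held 5.29 to 8.15 M counts over the regions. The strongest 10% of regions took 38.5% to 38.8% of counts in replicate 3 of every group and 43.3% to 48.8% in the other 6 libraries. Counts were therefore tested with edgeR in 2 ways: with TMM factors, the main test, and with trended offsets, a loess curve per library that evens out this contrast between strong and weak regions. Levels are TMM-normalised counts per 1 M counts of the library (CPM), and evened levels are CPM after the trended offsets. In bulk ATAC-seq, fewer cells with an open region and less opening per cell cannot be told apart. Of the alpha cell markers, 7 have a gene-end region and Gc has none, with a summed level over the 7 of 342 to 467 CPM with Smndc1 shRNA, 296 to 454 CPM with Atrx shRNA and 274 to 385 CPM with empty vector. Of 7 beta cell markers, Mafa and Nkx6-1 have one, with sums of 93.7 to 134, 93.7 to 138 and 105 to 157 CPM in the same order of groups. None of Ins1, Ins2, Pdx1, Slc2a2 and Ucn3 has one, nor has any of 5 endothelial markers, while 1 of 5 leukocyte, 1 of 5 fibroblast and 1 of 5 acinar and duct markers do. The end region of Smndc1 averaged 44.5 ± 9.58 CPM with Smndc1 shRNA and 49.3 ± 9.10 with empty vector, and that of Atrx 20.2 ± 6.51 with Atrx shRNA and 22.1 ± 6.25 with empty vector (SD, n = 3 each; edgeR adjusted p = 0.939 and 0.987). These levels do not test the knockdowns, because shRNAs act on transcripts.

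Promoter windows of 300 bases, from 250 before to 50 after an annotated start, were available from RefSeq (GRCm38.p6) for 27 of the 36 genes (33 windows), and each of the 27 genes has a consensus region over a window. Windows were searched on both strands for CCAAT (the NF-Y box), TTTGAA (the cell cycle homology region) and the E2F cores TTCCCGC and TTGGCGC, and no motif of this list contains another. CCAAT stood in 24 of the 33 windows (72.7%), against 37.4% of all 32851 windows of the table. An E2F core stood in 14 (42.4%), against 6.81% of all windows, and TTTGAA in 10 (30.3%), against 17.9%. In 82 windows of further genes of the same pathways, described below, CCAAT stood in 52.4%, an E2F core in 25.6% and TTTGAA in 41.5%. TTTGAA was thus more frequent there than in the member windows. The median GC content of the member windows was 59.3%, against 52.7% in all windows, and the median number of CpG dinucleotides 24, against 7. The motif counts take no account of that difference. A match is a description of letters and not a binding site.

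Both windows of Cdkn2c and the window of Cdkn1b are printed because 4 of the 7 regions called with trended offsets lie at these genes, a choice made after their values were seen. Cdk2, Ccnb2 and Ccne1 are printed because their start regions are among those with the lowest fold changes. Capitals mark the motifs above, or their reverse complement.
Cdkn2c outer start (chr4:109666707-109667006, minus strand): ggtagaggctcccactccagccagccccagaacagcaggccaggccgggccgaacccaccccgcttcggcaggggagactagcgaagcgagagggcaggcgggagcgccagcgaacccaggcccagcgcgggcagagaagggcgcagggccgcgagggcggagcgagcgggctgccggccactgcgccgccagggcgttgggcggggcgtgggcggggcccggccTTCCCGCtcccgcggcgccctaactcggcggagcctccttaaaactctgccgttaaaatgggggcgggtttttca
Cdkn2c internal start (chr4:109665323-109665622, minus strand): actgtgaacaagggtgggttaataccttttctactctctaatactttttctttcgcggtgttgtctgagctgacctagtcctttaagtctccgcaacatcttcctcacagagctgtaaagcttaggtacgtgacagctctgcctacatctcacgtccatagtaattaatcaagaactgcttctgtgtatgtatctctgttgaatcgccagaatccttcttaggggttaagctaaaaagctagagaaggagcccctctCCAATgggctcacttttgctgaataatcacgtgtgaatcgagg
Cdkn1b (chr6:134920151-134920450, plus strand): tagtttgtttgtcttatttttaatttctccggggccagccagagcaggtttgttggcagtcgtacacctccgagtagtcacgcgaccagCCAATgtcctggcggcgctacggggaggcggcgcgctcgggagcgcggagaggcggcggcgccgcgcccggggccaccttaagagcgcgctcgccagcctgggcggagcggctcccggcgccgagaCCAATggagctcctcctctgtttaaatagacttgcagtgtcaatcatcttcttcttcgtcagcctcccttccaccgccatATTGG
Cdk2 (chr10:128705002-128705301, minus strand): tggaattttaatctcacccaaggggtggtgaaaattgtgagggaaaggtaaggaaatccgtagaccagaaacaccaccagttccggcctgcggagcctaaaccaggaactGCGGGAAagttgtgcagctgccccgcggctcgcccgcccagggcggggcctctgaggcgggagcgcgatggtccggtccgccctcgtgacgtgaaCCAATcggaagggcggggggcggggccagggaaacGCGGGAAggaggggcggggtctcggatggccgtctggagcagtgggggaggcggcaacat
Ccnb2 (chr9:70421505-70421804, minus strand): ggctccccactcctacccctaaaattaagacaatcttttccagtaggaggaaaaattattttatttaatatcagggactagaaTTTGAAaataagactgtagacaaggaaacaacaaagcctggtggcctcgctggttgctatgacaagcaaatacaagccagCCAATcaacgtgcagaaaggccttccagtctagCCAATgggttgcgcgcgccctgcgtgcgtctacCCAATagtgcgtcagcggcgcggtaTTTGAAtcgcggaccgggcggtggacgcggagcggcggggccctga
Ccne1 (chr7:38107441-38107740, minus strand): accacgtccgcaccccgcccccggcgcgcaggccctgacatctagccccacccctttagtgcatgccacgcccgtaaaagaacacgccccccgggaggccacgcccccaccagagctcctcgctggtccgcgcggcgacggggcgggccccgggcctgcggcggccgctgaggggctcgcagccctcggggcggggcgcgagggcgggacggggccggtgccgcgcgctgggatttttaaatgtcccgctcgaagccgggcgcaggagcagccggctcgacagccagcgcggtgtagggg
The outer start of Cdkn2c holds an E2F core and the internal start a CCAAT box. Cdkn1b holds 3 CCAAT boxes and Cdk2 holds 2 E2F cores and 1 CCAAT box. Ccnb2, a mitotic cyclin, holds 3 CCAAT boxes and 2 TTTGAA matches, and the Ccne1 window holds none of the motifs.

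Each gene was first described by its lead region, the gene-end region with the highest mean CPM or, for the 5 genes without one, the strongest other region. Per kb of region, the most open leads were those of E2f1, an activator of S phase genes, and Mcm4, a subunit of the replicative helicase. E2f1 stood at 110 ± 22.1 CPM per kb in Smndc1 shRNA cells, 115 ± 28.3 in Atrx shRNA cells and 125 ± 21.4 in empty vector cells (SD, n = 3 each). Mcm4 stood at 105 ± 24.6, 122 ± 26.1 and 111 ± 22.9 CPM per kb in the same order of groups. Cdc6, which loads the helicase, and Aurka, a mitotic kinase whose lead is also an end of Cstf1, came next, at 106 and 105 CPM per kb over the 9 libraries, and Cdkn1b was the fifth, at 99.0. The lowest leads were those of Cdk6, a region 157717 bp into the gene, at 15.1 ± 1.08, 10.1 ± 1.46 and 13.3 ± 2.97 CPM per kb, and Ccnd2, a flank region, at 11.4 ± 0.834, 11.6 ± 2.22 and 11.0 ± 1.46. Of the 35 pairs of neighbours in this order, 34 had overlapping ranges over the 9 libraries, and Ccnb2 (24.5) and Cdk6 (12.8) did not. The median over member gene-end regions was 42.7 CPM per kb, against 33.9 over all 12711 gene-end regions.

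**Figure D1:**
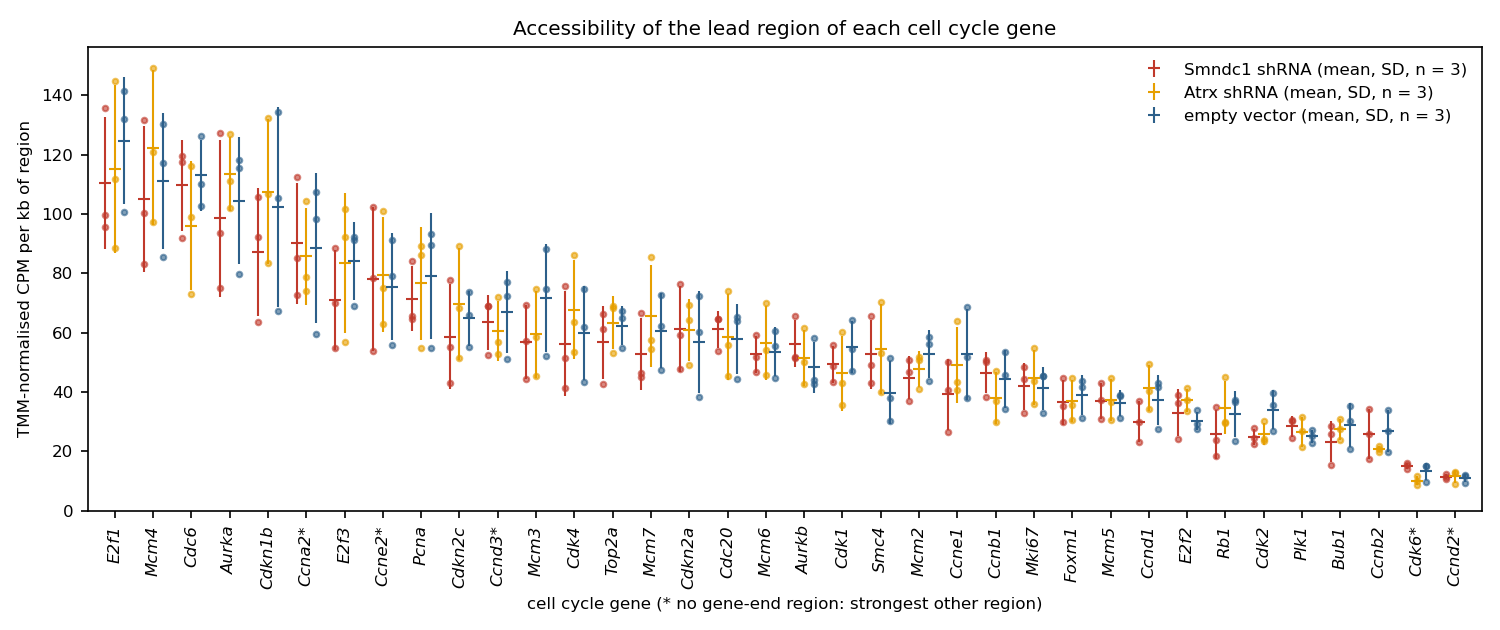
TMM-normalised CPM per kb (vertical axis) of the lead region of each of the 36 cell cycle genes, with a point per library, the mean as a dash and the SD as a bar for the 3 groups of 3 libraries. Levels run from 117 at E2f1 (mean of the 9 libraries) down to 12.8 at Cdk6 and 11.3 at Ccnd2, and the groups overlap at most genes.

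With TMM factors, 0 of the 122 member regions passed an adjusted p of 0.05 with either shRNA. With Smndc1 shRNA, the background was 125 of 80345 regions (0.156%), and at an unadjusted p under 0.05 (8.09% of all regions) 7 member regions were higher and 2 lower. With Atrx shRNA, no region of the whole table passed (0%), 4618 (5.75%) had an unadjusted p under 0.05, and DESeq2 and limma voom also called 0 (3806 and 4394 unadjusted), while member regions gave 7 higher and 2 lower at that level. With trended offsets, 7 member regions passed with Smndc1 shRNA, against 1.13% of all regions: 5 rose (background for higher regions 0.416%) and 2 fell (background for lower regions 0.717%). With Atrx shRNA 2 rose (background 0.195%) and 0 fell (background 0.0734%), against 0.269% of all regions in either direction. At an unadjusted p under 0.05 with trended offsets, 10 of the 122 member regions were higher and 5 lower with Smndc1 shRNA. At that level the members were near the share over all regions, 12.5%. Of the 5 regions that rose with Smndc1 shRNA, 4 lie at the Cdk inhibitor genes Cdkn1b and Cdkn2c, and so do both regions that rose with Atrx shRNA. These backgrounds moved with single libraries. For Smndc1 shRNA the count over all regions ran from 1 (without replicate 1 of empty vector) to 609 (without its replicate 3) with TMM factors, and from 240 (without replicate 2 of empty vector) to 1216 (without its replicate 3) with trended offsets, against 910 with all libraries. For Atrx shRNA it ran from 21 (without replicate 1 of Atrx shRNA) to 454 (without replicate 3 of Smndc1 shRNA) with trended offsets, against 216. The member counts with trended offsets ran from 2 (without replicate 2 of Smndc1 shRNA or of empty vector) to 7, and from 1 (without replicate 1 or 2 of Atrx shRNA or replicate 2 of empty vector) to 2.

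The median fold change over the 49 member gene-end regions (log2, TMM factors) was -0.09 with Smndc1 shRNA and 0.08 with Atrx shRNA, against -0.01 and -0.02 over all gene-end regions. Set against the mean of the empty vector libraries, that median was -0.03, 0.16 and -0.36 in the 3 Smndc1 shRNA libraries and 0.32, 0.08 and -0.22 in the 3 Atrx shRNA libraries. Replicate 3, the library of low contrast, was the lowest in both groups, and the spread over libraries (SD 0.26 and 0.27) exceeded both medians.

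**Figure D2:**
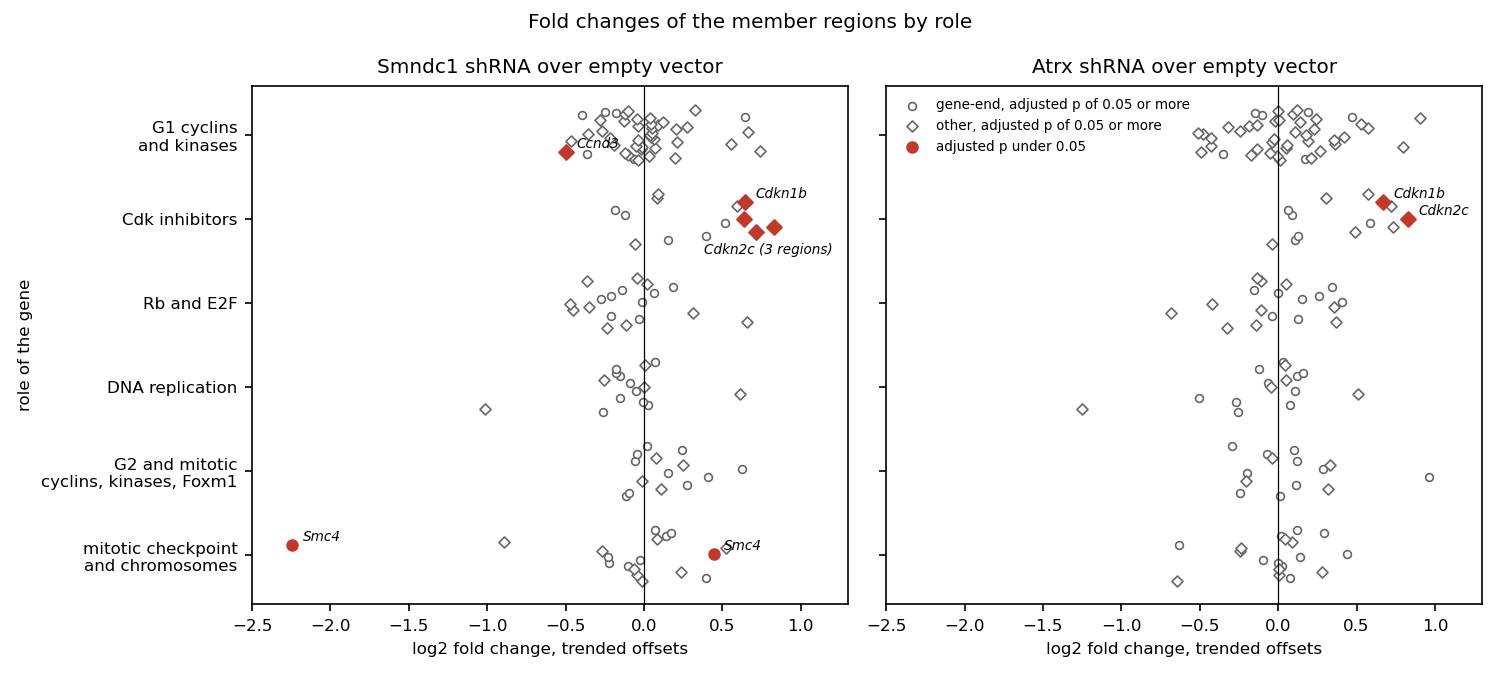
Log2 fold change with trended offsets (horizontal axis) of all 122 member regions, in rows by the role of the gene, for Smndc1 shRNA over empty vector (left) and Atrx shRNA over empty vector (right). Circles are gene-end regions and diamonds other regions, and filled red symbols have an adjusted p under 0.05: 7 on the left and 2 on the right, with the Cdk inhibitors holding 4 and 2 of them.

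Among the Cdk inhibitors, some regions away from the main start were called more open with an shRNA with trended offsets, while the main starts were not called. With TMM factors none was called, with the smallest adjusted p at 0.251 for Smndc1 shRNA and 0.562 for Atrx shRNA. Cdkn1b, Cdkn2a and Cdkn2c have 13 regions, 5 at gene ends and 8 elsewhere. Of the 8, 4 rose with Smndc1 shRNA and 2 with Atrx shRNA with trended offsets, and 0 fell. Their median log2 fold change was 0.54 with Smndc1 shRNA and 0.59 with Atrx shRNA (TMM factors), with 7 of 8 positive in each case, against medians of 0.02 and 0.01 over all regions. Over all regions, 41630 of 80345 were positive with Smndc1 shRNA. The 8 regions are neighbours at 3 genes, and both comparisons use the same empty vector libraries, so these signs are not independent. With trended offsets both medians were 0.62.

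The region with the smallest adjusted p lies downstream of Cdkn1b, at chr6:134926777-134927947 (mm10), 1.25 kb past the gene and 1.15 kb from the lncRNA gene Lockd. It held 49.7, 72.0 and 39.9 CPM in the Smndc1 shRNA libraries, 66.6, 57.5 and 43.7 in the Atrx shRNA libraries, and 39.2, 40.7 and 25.8 in the empty vector libraries (replicates 1 to 3). All 3 Atrx shRNA libraries lay above all 3 empty vector libraries, and replicate 3 of Smndc1 shRNA lay just below the highest empty vector library. In evened levels it averaged 53.7 ± 7.07 CPM in Smndc1 shRNA cells, 54.6 ± 1.36 in Atrx shRNA cells and 34.2 ± 2.65 in empty vector cells, and neither shRNA group overlapped empty vector. Evened levels lay wholly above empty vector in 7.73% of all regions with Smndc1 shRNA and in 7.31% with Atrx shRNA. Of the 122 member regions, 12 did so with Smndc1 shRNA. The same shares apply to the groups described below as lying above empty vector in evened levels. For groups that lay apart in CPM, here and below, the share over all regions was not counted. The log2 fold change with trended offsets was 0.65 ± 0.13 with Smndc1 shRNA (SE, adjusted p = 0.00109) and 0.67 ± 0.13 with Atrx shRNA (adjusted p = 0.00246). With TMM factors the folds were alike, 0.61 ± 0.26 and 0.66 ± 0.26, with adjusted p = 0.50 and 0.759. With trended offsets and each of the 9 libraries left out in turn, both calls held, with the highest adjusted p at 0.0438 for Smndc1 shRNA and 0.0471 for Atrx shRNA.

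The other 4 regions of Cdkn1b were not called. The region over its start, which covers the promoter printed above, held 69.1, 79.3 and 47.7 CPM with Smndc1 shRNA, 99.2, 80.0 and 62.7 with Atrx shRNA and 78.9, 101 and 50.6 with empty vector. These groups overlapped, with a log2 fold of -0.19 ± 0.12 for Smndc1 shRNA and 0.06 ± 0.11 for Atrx shRNA with trended offsets (adjusted p = 0.524 and 0.909). A weaker region 1061 bp into the gene had folds of 0.59 ± 0.23 and 0.72 ± 0.23 (adjusted p = 0.206 and 0.157). The region at chr6:134928231-134929562, the strongest of the 3 downstream ones, had folds of 0.08 ± 0.12 and 0.31 ± 0.11 (adjusted p = 0.827 and 0.29).

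At Cdkn2c, 3 of 5 regions rose with Smndc1 shRNA and 1 of them also with Atrx shRNA, with trended offsets. The region over the internal start, chr4:109665116-109665949, held 25.6, 35.8 and 23.3 CPM with Smndc1 shRNA, 40.0, 35.3 and 23.4 with Atrx shRNA and 24.1, 18.9 and 13.8 with empty vector. In evened levels (28.4 ± 3.36, 32.4 ± 4.40 and 18.2 ± 3.06) both shRNA groups lay wholly above empty vector. The log2 fold was 0.64 ± 0.17 with Smndc1 shRNA (adjusted p = 0.0233) and 0.83 ± 0.17 with Atrx shRNA (adjusted p = 0.00359), and 0.57 ± 0.25 and 0.79 ± 0.25 with TMM factors (adjusted p = 0.505 and 0.562). The Smndc1 shRNA call ended without replicate 2 of Smndc1 shRNA (adjusted p = 0.175) or without replicate 2 or 3 of empty vector (0.192 and 0.0923). The Atrx shRNA call ended without replicate 1 or 2 of Atrx shRNA (0.095 and 0.0881) or replicate 2 of empty vector (0.0734).

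The flank region chr4:109656828-109657980 lies 2.9 kb past Cdkn2c and overlaps the lncRNA gene 9630013D21Rik. It held 34.9, 63.4 and 28.1 CPM with Smndc1 shRNA, 44.8, 38.8 and 26.0 with Atrx shRNA and 33.3, 26.3 and 19.3 with empty vector. Replicate 2 of Smndc1 shRNA was the highest library. The log2 fold was 0.71 ± 0.15 with Smndc1 shRNA (adjusted p = 0.00156) and 0.49 ± 0.15 with Atrx shRNA (adjusted p = 0.143). Without replicate 2 of Smndc1 shRNA the fold for Smndc1 shRNA was 0.43 (adjusted p = 0.246), and without replicate 2 of empty vector 0.66 (adjusted p = 0.0818).

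A weaker flank region, chr4:109658461-109659253, lies 1.62 kb past Cdkn2c and nearer, at 0.87 kb, to 9630013D21Rik. It held 18.1, 23.0 and 12 CPM with Smndc1 shRNA, 15.7, 18.5 and 15.7 with Atrx shRNA and 13.2, 11.5 and 6.89 with empty vector. Its fold was 0.83 ± 0.22 with Smndc1 shRNA (adjusted p = 0.0285) and 0.73 ± 0.22 with Atrx shRNA (adjusted p = 0.142). The call ended without replicate 1 or 2 of Smndc1 shRNA (adjusted p = 0.121 and 0.262) and without replicate 1, 2 or 3 of empty vector (0.0696, 0.128 and 0.15). The outer start of Cdkn2c, the strongest region of the gene, held 40.0, 56.6 and 31.3 CPM with Smndc1 shRNA, 64.9, 49.6 and 37.5 with Atrx shRNA and 47.8, 53.6 and 40.1 with empty vector, and the groups overlapped. Its folds with trended offsets were -0.12 ± 0.13 and 0.09 ± 0.13 (adjusted p = 0.756 and 0.876).

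**Figure D3:**
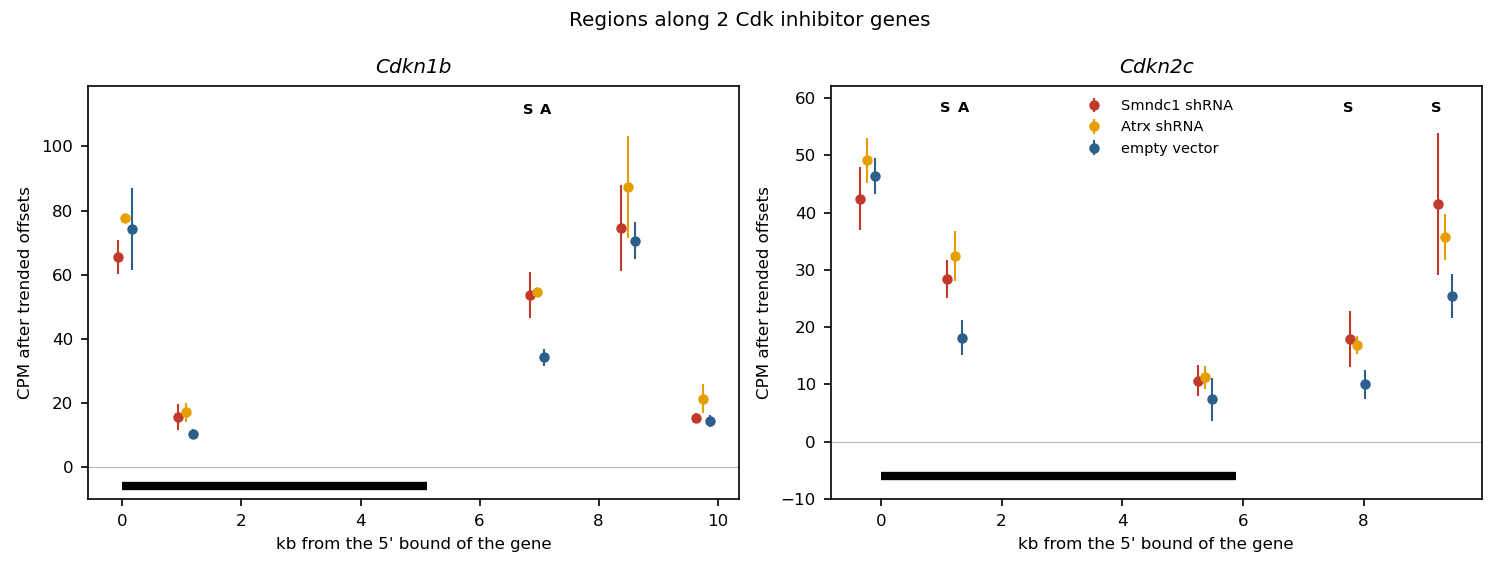
Evened CPM (mean and SD of 3 libraries per group) of every consensus region at Cdkn1b and Cdkn2c, against the distance of its centre in kb from the 5′ bound of the gene, drawn as a black bar. S and A mark regions that rose with Smndc1 shRNA and with Atrx shRNA: at Cdkn1b the marked region lies past the gene, at Cdkn2c 1 lies inside and 2 past it, and the region at the 5′ bound carries no mark in either gene.

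Cdkn2a, which encodes p16 and p19Arf, had 0 called regions among 3. Its lead region, at the outermost start, held 54.1, 70.0 and 43.6 CPM with Smndc1 shRNA, 63.4, 58.8 and 45.0 with Atrx shRNA and 55.1, 66.1 and 35.1 with empty vector. The groups overlapped, and the folds with trended offsets were 0.15 ± 0.12 and 0.11 ± 0.13 (adjusted p = 0.664 and 0.832). Its internal start had folds of -0.06 ± 0.17 and -0.04 ± 0.18.

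The 8 genes of G1 cyclins and kinases hold 44 regions, of which 1 fell with Smndc1 shRNA and 0 were called with Atrx shRNA, with trended offsets. The region that fell lies inside Ccnd3 (cyclin D3), 6278 bp past an annotated start, at chr17:47510966-47511692. It held 28.8, 37.5 and 25.4 CPM with Smndc1 shRNA, 32.8, 32.8 and 27.9 with Atrx shRNA and 41.9, 54.6 and 37.1 with empty vector. All 3 Atrx shRNA libraries lay below all 3 empty vector libraries, and replicate 2 of Smndc1 shRNA lay just above the lowest empty vector library. The log2 fold was -0.50 ± 0.14 with Smndc1 shRNA (adjusted p = 0.0497) and -0.49 ± 0.14 with Atrx shRNA (adjusted p = 0.115). The call stood at the threshold: it held without replicate 3 of Atrx shRNA (adjusted p = 0.0461) and ended with any other library left out. Those values were 0.185, 0.0742 and 0.0826 without Smndc1 shRNA replicates 1 to 3, 0.0569 and 0.0749 without Atrx shRNA replicates 1 and 2, and 0.0664, 0.408 and 0.0788 without empty vector replicates 1 to 3. The lead region of Ccnd3, at an internal start, had folds of -0.02 and -0.13.

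The start regions of Cdk2 and Ccne1 (cyclin E1) had the lowest folds of all leads with Smndc1 shRNA in the TMM fit, and neither passed the test. The Cdk2 region also overlaps Pmel, so it cannot be given to 1 gene. Cdk2, the kinase partner of cyclin E, held 28.2, 22.9 and 24.9 CPM with Smndc1 shRNA, 30.5, 24.4 and 23.9 with Atrx shRNA and 36.0, 40.3 and 27.2 with empty vector. In evened levels both shRNA groups lay below empty vector, as did 8.45% of all regions with Smndc1 shRNA and 7.6% with Atrx shRNA. The folds at Cdk2 were -0.37 ± 0.16 and -0.35 ± 0.16 with trended offsets (adjusted p = 0.284 and 0.428) and -0.45 and -0.39 with TMM factors. Ccne1 held 48.8, 60.2 and 31.6 CPM with Smndc1 shRNA, 76.4, 51.7 and 48.5 with Atrx shRNA and 61.9, 82.1 and 45.4 with empty vector. Its fold with trended offsets was -0.40 ± 0.12 with Smndc1 shRNA (adjusted p = 0.0872), with no overlap in evened levels, and -0.10 ± 0.12 with Atrx shRNA (adjusted p = 0.838).

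Cdk6 holds 20 regions along its long body, the most of any member, and none was called. Its lead held 17.4, 16.6 and 15.1 CPM with Smndc1 shRNA, 12.5, 9.35 and 10.9 with Atrx shRNA and 16.1, 10.6 and 16.3 with empty vector, with TMM folds of 0.19 ± 0.23 and -0.39 ± 0.24 (adjusted p = 0.90 and 0.922). The region over the Cdk6 start was weak, with 4.85, 6.61 and 5.41 CPM with Smndc1 shRNA, 2.57, 5.35 and 5.19 with Atrx shRNA and 4.89, 6.74 and 5.64 with empty vector, and its TMM folds were -0.04 ± 0.37 and -0.41 ± 0.38. Cdk4, the other partner of D-type cyclins, held 47.9, 70.5 and 38.4 CPM at its start with Smndc1 shRNA, 80.1, 59.0 and 49.8 with Atrx shRNA and 57.5, 69.5 and 40.2 with empty vector. Its TMM folds were -0.09 ± 0.27 and 0.18 ± 0.27, and the groups overlapped. The 5 regions of Ccnd1 (cyclin D1), the 4 of Ccnd2 and the 2 of Ccne2 were not called either.

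Rb1 and E2f1 to E2f3 hold 18 regions, and 0 were called with either shRNA in either fit. The lead of Rb1, the retinoblastoma gene, held 15.3, 22.4 and 11.8 CPM with Smndc1 shRNA, 28.9, 18.9 and 19.2 with Atrx shRNA and 24.0, 23.6 and 15.2 with empty vector. The groups overlapped, and the TMM folds were -0.35 ± 0.24 and 0.09 ± 0.24 (adjusted p = 0.774 and 0.99). The lead of E2f2 held 28.1, 30.2 and 18.8 CPM with Smndc1 shRNA, 32.0, 28.8 and 26.0 with Atrx shRNA and 26.2, 22.7 and 21.4 with empty vector. In evened levels the Atrx shRNA libraries lay above empty vector, with a fold of 0.34 ± 0.17 (adjusted p = 0.494). The 2 start regions of E2f1 had folds between -0.15 and 0.06 with trended offsets in both comparisons.

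The 8 replication genes (Cdc6, Mcm2 to Mcm7 and Pcna, the sliding clamp of DNA polymerase) hold 15 regions, none of them called. Of their 10 gene-end regions, 9 had a negative TMM fold with Smndc1 shRNA (median -0.18) and 5 with Atrx shRNA (median -0.00). Over all gene-end regions, 6477 of 12704 had a negative TMM fold with Smndc1 shRNA (median -0.01). With trended offsets 8 of the 10 were negative with Smndc1 shRNA (median -0.12), against 5540 of 12704 over all gene-end regions (median 0.04). The smallest adjusted p of the 10 in that comparison was 0.429. At Mcm4, which shares its end with Prkdc, the lead held 80.9, 106 and 66.8 CPM with Smndc1 shRNA, 120, 97.2 and 78.2 with Atrx shRNA and 94.3, 105 and 68.9 with empty vector. Replicate 3 was lowest in each group.

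The G2 and mitotic genes Ccna2, Ccnb1, Ccnb2, Cdk1, Foxm1, Aurka, Aurkb and Plk1 hold 14 regions, again with 0 calls. Their 10 gene-end regions had a median TMM fold of -0.00 with Smndc1 shRNA and 0.02 with Atrx shRNA. The start of Ccnb2 (cyclin B2) held 9.56, 19.0 and 14.4 CPM with Smndc1 shRNA, 12, 10.9 and 11.5 with Atrx shRNA and 18.8, 14.9 and 11.0 with empty vector. Its TMM folds were -0.07 ± 0.24 and -0.37 ± 0.24 (adjusted p = 0.976 and 0.935). Aurkb, the kinase of the chromosomal passenger complex, held 28.5, 36.3 and 28.8 CPM with Smndc1 shRNA, 34.0, 27.7 and 23.7 with Atrx shRNA and 24.4, 32.2 and 23.6 with empty vector. Its TMM fold with Smndc1 shRNA, 0.22 ± 0.24, was the second highest of the leads (adjusted p = 0.885).

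The genes of the mitotic checkpoint and of chromosome structure (Bub1, Cdc20, Smc4, Top2a and Mki67) hold 18 regions. With trended offsets and Smndc1 shRNA, 1 rose and 1 fell, both at Smc4, a condensin subunit. The lower end of Smc4, chr3:69005172-69006244, is also an end of Ift80, so the region cannot be given to 1 gene. It held 52.8, 70.5 and 46.2 CPM with Smndc1 shRNA, 75.5, 56.9 and 42.9 with Atrx shRNA and 40.6, 55.1 and 32.4 with empty vector. The libraries overlapped in CPM and not in evened levels, and the fold was 0.44 ± 0.13 with both Smndc1 shRNA (adjusted p = 0.0472) and Atrx shRNA (adjusted p = 0.111). The Smndc1 shRNA call held without replicate 3 of Atrx shRNA (0.0446) or replicate 2 of empty vector (0.043). It ended without Smndc1 shRNA replicates 1 to 3 (0.0788, 0.168 and 0.0558), Atrx shRNA replicates 1 and 2 (0.0589 and 0.0693) and empty vector replicates 1 and 3 (0.388 and 0.113).

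The upper end of Smc4, chr3:69034699-69035199, is also an end of Trim59. This weak region held 1.03, 1.36 and 0.338 CPM with Smndc1 shRNA, 2.41, 3.82 and 2.3 with Atrx shRNA and 5.78, 2.2 and 3.13 with empty vector. All 3 Smndc1 shRNA libraries lay below all others in CPM, and the share of all regions placed so was not counted. The fold was -2.25 ± 0.62 with Smndc1 shRNA (adjusted p = 0.0349) and -0.63 ± 0.55 with Atrx shRNA (adjusted p = 0.757). With TMM factors the fold for Smndc1 shRNA was -2.0 ± 0.67 (adjusted p = 0.28). Without replicate 1 of empty vector, the highest library, the fold for Smndc1 shRNA was -1.48 (adjusted p = 0.527) and that for Atrx shRNA turned to 0.12 (adjusted p = 0.986). The call also ended without Smndc1 shRNA replicate 1 or 3 (0.119 and 0.177), Atrx shRNA replicate 2 (0.0596) and empty vector replicate 2 (0.0656). The start of Mki67, the Ki-67 proliferation marker, held 52.5, 56.9 and 38.9 CPM with Smndc1 shRNA, 64.6, 51.7 and 42.5 with Atrx shRNA and 53.6, 53.6 and 38.7 with empty vector, with TMM folds of 0.02 ± 0.25 and 0.12 ± 0.25.

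**Figure D4:**
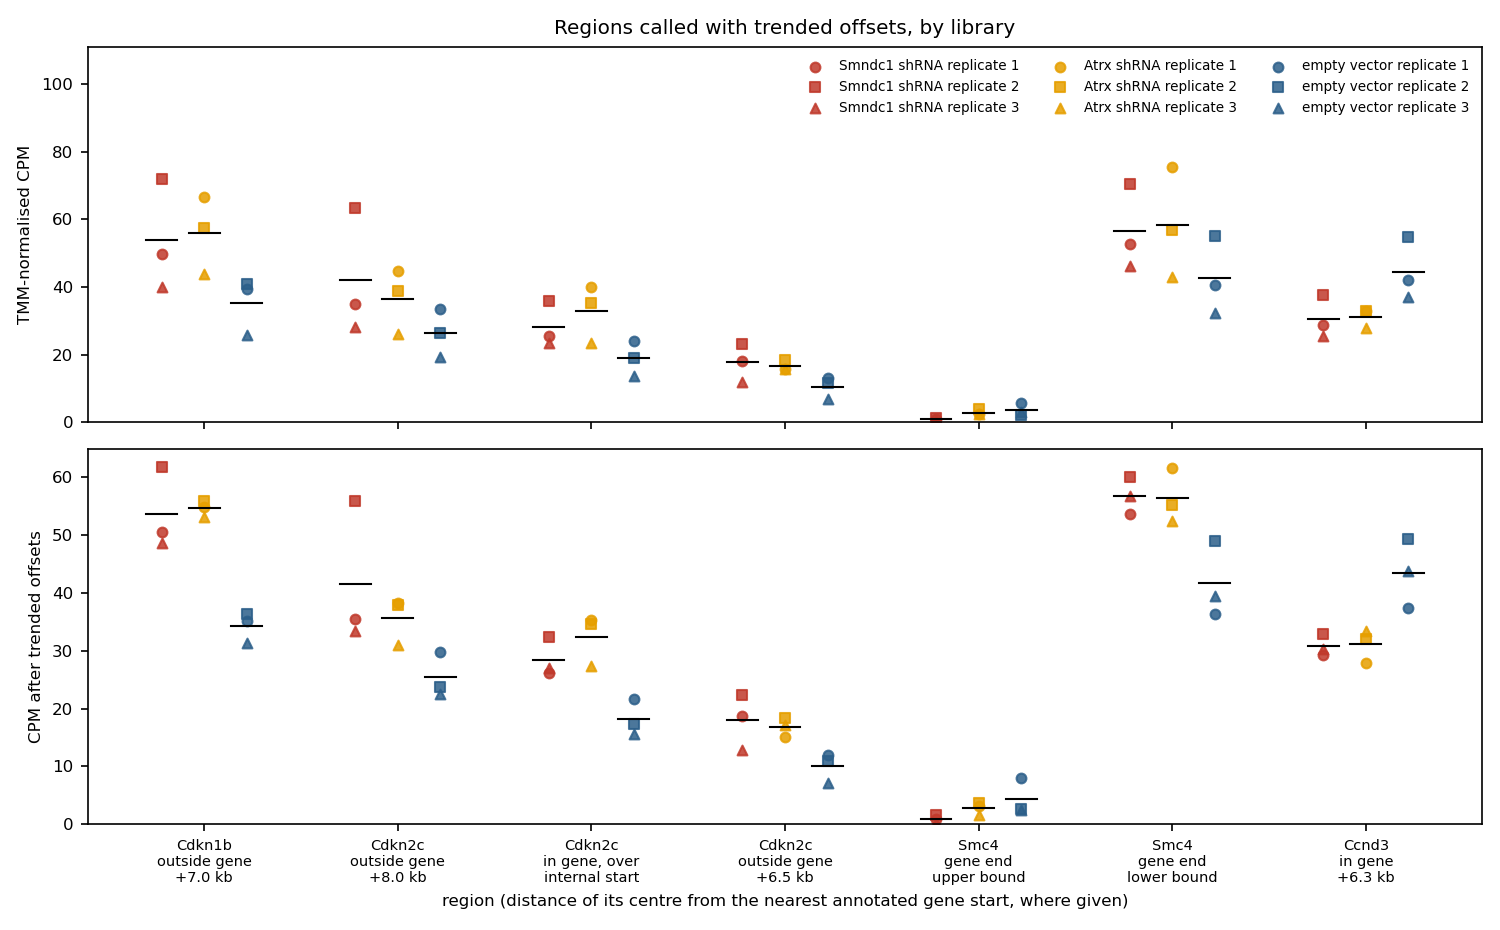
The 7 regions called with trended offsets, by library: TMM-normalised CPM (top) and evened CPM (bottom), with a symbol per replicate number and a line at the mean of each group of 3. Replicate 3 (triangles) is the lowest library of its group at most regions in the top panel and lies closer to the others in the bottom panel. The calls were made on the counts with trended offsets, and the bottom panel shows levels after those offsets.

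**Figure D5:**
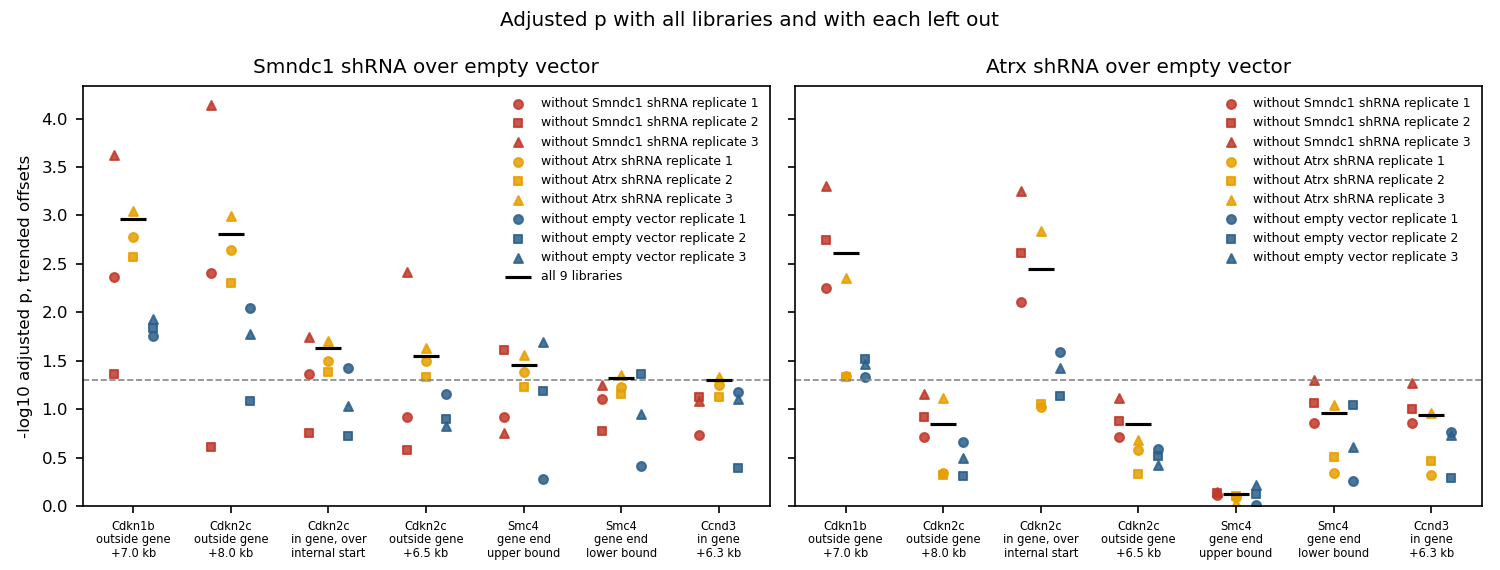
Adjusted p on a negative log10 scale (vertical axis) for the same 7 regions with all 9 libraries (black dash) and with each library left out (symbols), for Smndc1 shRNA (left) and Atrx shRNA (right) over empty vector. The dashed line marks an adjusted p of 0.05, and every symbol of the Cdkn1b region lies above it in both panels.

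Between the shRNAs, 0 of the 122 member regions differed, against 0.0759% of all regions with TMM factors and 0.592% with trended offsets. At an unadjusted p under 0.05, 2 member regions were higher and 2 lower with TMM factors (background 5.4%), and 4 and 11 with trended offsets (background 9.3%), where the smallest adjusted p of a member was 0.268. The called regions were not shown to differ between Smndc1 shRNA and Atrx shRNA.

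A further 83 genes of the same pathways were read the same way, of which 81 have at least 1 region (238 regions; Cdkn1c and Rrm2 have none). With trended offsets, 1 region rose (0.42% of the 238, background 0.416%) and 2 fell (0.84%, background 0.717%) with Smndc1 shRNA, and 1 rose (0.42%, background 0.195%) and 0 fell with Atrx shRNA. These shares lie near the background for Smndc1 shRNA, so the regions below are given as single regions and not as a result about the pathways. The region that rose in both lies inside Cdkn1a, which encodes the Cip/Kip inhibitor p21. It held 49.6, 68.6 and 40.4 CPM with Smndc1 shRNA, 70.7, 54.2 and 41.9 with Atrx shRNA and 38.2, 43.7 and 29.0 with empty vector. Its folds were 0.55 ± 0.13 (adjusted p = 0.00816) and 0.58 ± 0.13 (adjusted p = 0.0147). The Cdk inhibitor genes Cdkn2b and Cdkn2d of the same list, with 1 and 3 regions, had no called region. A flank region of Ttk, a spindle checkpoint kinase, was the one region of the 238 that also passed with TMM factors. It fell to 5.88, 3.90 and 5.24 CPM with Smndc1 shRNA, against 12.3, 13.1 and 9.55 with empty vector, a TMM fold of -1.21 ± 0.29 (adjusted p = 0.0495), and held 6.91, 9.74 and 5.84 with Atrx shRNA. A weak region inside Tfdp2, which encodes an E2F dimerisation partner, fell with Smndc1 shRNA with a fold of -1.43 ± 0.39 with trended offsets (adjusted p = 0.0327).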

How the data were processed

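ATAC-seq libraries of alphaTC1 cells (3 groups of 3) were analysed from the counts per consensus region that the authors deposited, whole numbers with no scaling, and from the deposited coordinates of 80827 regions (mm10). Per the submitters' processing notes, the tools included MACS2 2.2.7.1, Bowtie2 2.4.4, bedtools 2.27.1 and deepTools 3.5.1. The sources used here do not give the role of each, how regions were merged, or whether reads, fragments or insertions were counted. Columns without a labelled sample numbered 0. Region depth was 5.29 to 8.15 M counts per library, and its counting error is part of the edgeR model, apart from the dispersion.

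Regions were placed with RefSeq gene bounds (GRCm38.p6). Counts of all 9 libraries were fitted together in edgeR 4.0.16 (R 4.3.3; quasi-likelihood F test, robust dispersion, TMM factors, filterByExpr at a minimum count of 10), with p-values Benjamini-Hochberg adjusted over 80345 regions (482 fell below the filter; all 122 member regions passed), threshold 0.05. SEs are the absolute log2 fold change over the square root of F. Trended offsets are loess curves (span 0.3) of each library's log2(count + 0.5) on the mean. Alternatives were DESeq2 1.42.0, limma 3.58.1 voom, other factors and filters, a replicate block and libraries left out. Named with values are called member regions in either fit, the 3 highest and 3 lowest lead regions per comparison with empty vector, and called pathway regions; the others are named as examples chosen after their values were seen. An alpha cell marker of the list is not reported here. The members and lists were chosen with earlier results of these data known. Figures used Python 3.11.15 and matplotlib 3.10.9.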

Additional observations from a re-analysis of the deposited data

How the results depend on the processing

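The calls among cell cycle genes depended on the scaling. With Smndc1 shRNA, the count of member regions called was 0 with TMM factors, 7 with trended offsets, 1 with only regions of a mean count of at least 50 and 4 with the replicate block. With Atrx shRNA it was 0 with TMM factors, 2 with trended offsets and 2 with the replicate block. Within trended offsets, the 7 calls with Smndc1 shRNA became 4 without replicate 3 of every group, 2 at an adjusted p under 0.01 and 4 with gene bodies extended by 1 kb, and ran from 2 to 7 with single libraries left out. The 1 kb window holds 99 of the member regions. It leaves out the called region downstream of Cdkn1b, at 1.25 kb from the gene, and both called flank regions of Cdkn2c. The 2 calls with Atrx shRNA became 1 with the 1 kb extension and 7 with the replicate block, which added a second Cdkn1b region (adjusted p = 0.041), both flank regions of Cdkn2c (0.0373 and 0.0297), the lower end of Smc4 (0.0237) and the Ccnd3 region (0.035), and ran from 1 to 2 with single libraries left out. With Smndc1 shRNA the block with trended offsets kept the 7 and added the Ccne1 start (adjusted p = 0.029). Trended offsets without replicate 3, at the stricter threshold or at 1 kb were alternatives chosen after seeing the data.

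Replicate numbers were not treated as pairs: deviations of same-numbered libraries from their group means correlated at -0.01, 0.16 and 0.35 between Smndc1 shRNA and empty vector and 0.25, 0.03 and 0.42 between Atrx shRNA and empty vector, so not every pair passed 0.1. Between the shRNAs, 0 member regions were called under every alternative run. The median fold change of member gene-end regions ranged from -0.26 to 0.04 with Smndc1 shRNA, from -0.12 to 0.21 with Atrx shRNA and from -0.23 to 0.02 between the shRNAs. In the comparison in which it was called, no region changed sign under the alternatives run. Weak regions carried larger errors: the SE of the log2 fold for Smndc1 shRNA was 0.37 at the Cdk6 start and 0.27 at the Cdkn1b start (TMM factors).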
